A study of Arabidopsis thaliana with 12 samples.

Results

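The report concerns 79 probes, each annotated to exactly 1 Arabidopsis thaliana gene, whose signal stood higher in every low CO2 sample than in any normal CO2 sample. Each sample's intensities were divided by the median over all 3439 probes of its array, so a value of 1 is the array median, and the probes were kept where all 6 scaled low CO2 values exceeded all 6 scaled normal CO2 values and where the deposited low CO2 mean was 0.3 or more. Of 692 single-gene probes, 90 met these conditions. Of 17 genes left out by name, 11 were among those 90, and the remaining 79 probes stood for 79 different genes. The members were thus chosen by the intensities of all 12 samples, the values of the comparison itself, and their differences between the groups are given as a description, without a test.

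The samples were total RNA of wild-type plants of the ecotype Columbia 0, and no group carried a mutation or transgene. In the low CO2 group the plants had finally spent 48 h at a CO2 content of 0.003% by volume, with day 2 in the sample titles (6 samples). In the normal CO2 group the plants were kept at normal CO2, with day 0 in the titles (6 samples). CO2 level and the time between the groups cannot be told apart. The labels name neither a tissue nor an age, and whether separate plants gave the 6 samples of each group is unstated.

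CO2 enters plant metabolism through Rubisco, the carboxylating enzyme of the Calvin-Benson cycle in the chloroplast stroma. When CO2 is scarce, Rubisco takes up oxygen more often, photorespiration recycles the product at a cost in energy and released CO2, and the thylakoid electron transport chain has less carbon fixation to spend its electrons on. Cyclic electron flow around photosystem I, in part through the chloroplast NADH dehydrogenase-like (NDH) complex, and changes in organelle gene expression are among the processes known to adjust to such an imbalance.

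Across all 3439 probes, 724 (21.1%) were higher and 703 lower at low CO2 in a limma fit of the median-scaled log2 values (adjusted p under 0.05, Benjamini-Hochberg), which takes the 6 samples of a group as independent. The same fit gave 278 higher and 210 lower with adjacent sample numbers averaged, and 506 higher and 394 lower with adjacent pairs as a random block. Without scaling it gave 373 higher and 1302 lower, and at the 75th percentile 610 higher and 885 lower. On the median scale 492 probes (14.3%) had all low CO2 values above all normal CO2 values. The share meeting both conditions of the selection was 13.8% of all probes, 13.0% of single-gene probes, 15.3% of probes listed with several genes and 13.5% of unnamed probes. In the opposite direction, in which 12.4% of all probes had no overlap, 75 single-gene probes had all low CO2 values below all normal CO2 values with a deposited normal CO2 mean of 0.3 or more. The deposited array median was 0.359 ± 0.0111 at low and 0.519 ± 0.0404 at normal CO2 (SD, n = 6 each), so that median scaling raises low CO2 values relative to the deposited ones. The spread of an array was also wider at low CO2, where the 95th percentile stood at 8.98 ± 0.284 times the array median, against 6.08 ± 0.793 times at normal CO2. The part of this difference in the values below was not tested, and values on other scales are given with them.

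Samples with adjacent numbers (1 and 2, 3 and 4, 5 and 6) resembled each other within each group over the 79 probes. The median difference between adjacent samples was 7.35% of their mean at low and 12.6% at normal CO2, against 20.1% and 33.5% between samples that were not adjacent. Deviations of a probe from its group mean cancel out within a group. Where some samples agree, the correlations of the others are therefore pulled down in the values that follow. Deviations from the group mean correlated at 0.599 on average between adjacent low CO2 samples and at 0.658 between adjacent normal CO2 samples, and at -0.388 and -0.385 between the others, across the 79 probes, which are not independent. Averaged over adjacent samples, the low CO2 deviations of a pair of numbers also correlated with the normal CO2 deviations of the same pair, at 0.418 to 0.675, while different pairs gave -0.559 to 0.219. Each group thus held 3 pairs of similar samples, and SDs over 6 samples count each pair as separate samples. So do the SEs of log2 differences below, which may therefore be too small. They come from the limma fit that takes the 6 samples of a group as independent, on the values that chose the members. The labels do not say what the adjacent samples share.

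Over the 79 probes, the ratio of the low CO2 mean to the normal CO2 mean ran from 1.56 to 30.5 with a median of 2.54. It was 2 or more for 58 probes and 4 or more for 19. On the deposited values, without scaling, the median ratio of the group means was 1.76, and 32 probes stood at 2 or more. On the median scale the median difference of mean log2 values was 1.39, beside -0.06 over all probes. At normal CO2, 27 of the probes averaged below their array median, and 24 of these averaged above it at low CO2. The other 3, AT5G66530, AT3G29185 and AT4G19160, stayed under the array median in both groups. The limit of 0.3 on the deposited low CO2 mean lies close to the deposited low CO2 array median, 0.359 on average. A probe kept by the selection could therefore average only a little below the array median at low CO2. The median probe of the 79 stood at 3.36 to 3.63 times the array median in the low CO2 samples and at 1.19 to 1.34 times in the normal CO2 samples, and the 79 together held 8.71% ± 0.322 and 3.79% ± 0.384 of the summed signal (SD, n = 6 each). In RNA of whole samples, more cells of a type and more RNA per cell cannot be told apart. Relative spread was 17.1% of the mean at low CO2 and 31.2% at normal CO2 for the median probe, where the median single-gene probe had 28.3% and 31.99%. The single-gene probes had no level limit, whereas the selection leaves out probes dim at low CO2 and favours groups with little scatter. The lower spread of the 79 at low CO2 can therefore follow from the selection, which was not tested.

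**Figure D1:**
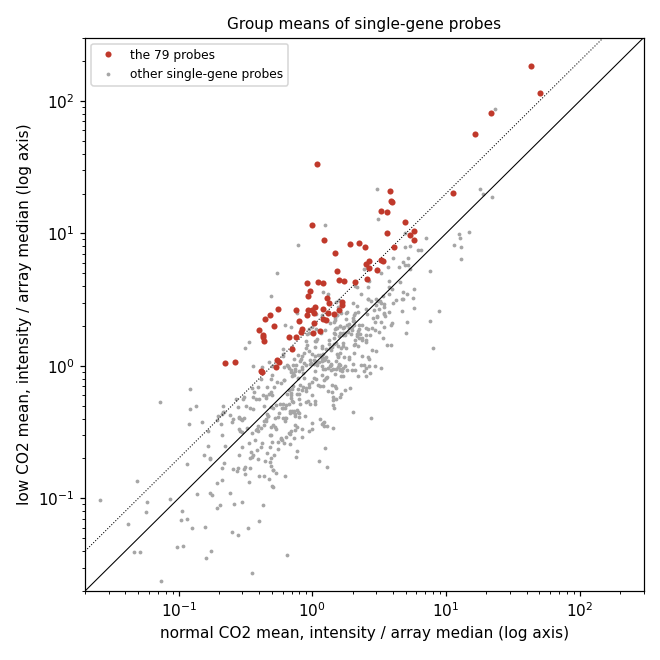
Mean intensity divided by the array median at low CO2 (vertical, log axis) against normal CO2 (horizontal, log axis) for single-gene probes, with the 79 in red; the solid line marks equal means and the dotted line a ratio of 2. Of the single-gene probes 656 are drawn and 36 with a mean of 0.02 or less in either group are not, and the 79 red points all lie above the solid line, 58 of them on or above the dotted one.

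The probe of AT4G35660 had the highest ratio of all. It read 27.7 to 40.7 at low CO2 (median 31.9), against 0.702 to 1.63 at normal CO2 (median 0.966), a 30.5-fold ratio of means (log2 difference 4.98 ± 0.21, SE). All low CO2 samples lay far above all normal ones, by at least 19.98-fold between samples of the same number, and the highest of the low values belonged to numbers 5 and 6. AT4G39760, encoding a protein with kelch repeats of the galactose oxidase type and an F-box, the part that ties such proteins to ubiquitin ligases, read 7.63 to 14.9 at low CO2 (median 12.05), against 0.336 to 1.41 at normal CO2 (median 1.15), a ratio of 11.6. Numbers 3 and 4 were the lowest pair in both groups. AT1G35510, a gene of the O-fucosyltransferase family, read 5.80 to 10.8 at low CO2 (median 9.71) and 0.900 to 1.49 at normal CO2 (median 1.24), a ratio of 7.23, with numbers 5 and 6 lowest at low CO2. A second probe, listed with AT1G35510 and with other genes as well, did not do so. It averaged 3.06 at low CO2 and 4.31 at normal CO2.

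**Figure D2:**
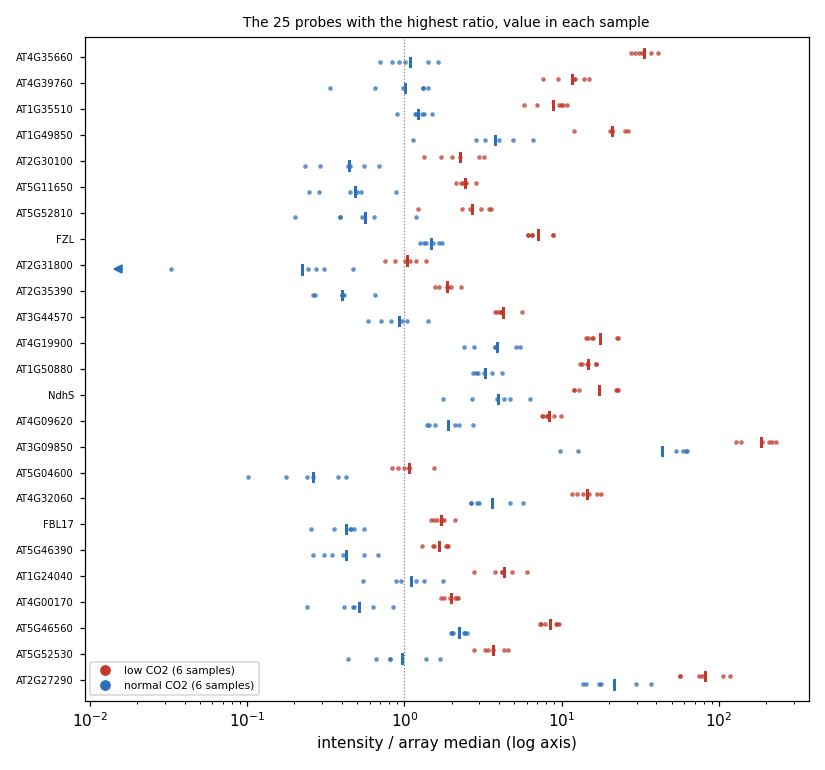
Intensity divided by the array median (log axis) in each of the 6 low CO2 samples (red) and 6 normal CO2 samples (blue) for the 25 probes with the highest ratio of group means, ordered by that ratio from 30.5 to 3.78; vertical bars are means, the dotted line is the array median, and the triangle marks a value of 0 in AT2G31800. Red points lie right of all blue points in every row, as the selection requires.

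The members are described in groups by role. The groups were drawn up by hand with the members known, so neither their sizes nor their median ratios say anything of enrichment. Bright and dim refer to the signal of a probe, and signals of different probes do not order their transcripts by abundance. Among genes of the thylakoid and the photosynthetic apparatus, 6 of the 79 could be placed with confidence, with ratios from 1.69 to 4.81 and a median of 3.06. FZL encodes a dynamin-like GTPase of the chloroplast that shapes the thylakoid network. Its probe read 6.10 to 8.82 at low CO2 (median 6.44) and 1.26 to 1.74 at normal CO2 (median 1.45), a ratio of 4.81 (log2 difference 2.26 ± 0.15, SE). The low CO2 values fell into 3 near-identical pairs, 6.10 for numbers 1 and 2, 6.44 for 3 and 4 and 8.82 for 5 and 6, and none came near the highest normal CO2 value. NdhS, also known as CRR31, encodes the subunit of the chloroplast NDH complex that docks ferredoxin, the electron donor of this path. It read 11.9 to 22.7 at low CO2 (median 17.6) and 1.77 to 6.31 at normal CO2 (median 4.10), a ratio of 4.40 (log2 difference 2.18 ± 0.32, SE). Its low CO2 values split into 11.9 to 12.8 for numbers 1 to 3 and 22.3 to 22.7 for numbers 4 to 6, a split that did not follow the adjacent pairs.

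AT5G46390, a gene of the carboxyl-terminal processing protease family, whose members include the enzyme that matures the D1 protein of photosystem II, read 1.30 to 1.89 at low CO2 (median 1.69) and 0.262 to 0.675 at normal CO2 (median 0.376), a ratio of 3.90. A further probe lists AT5G46390 together with other genes, and it averaged 0.846 at low and 1.40 at normal CO2. AT3G29185, known as BFA1, encodes an assembly factor of the chloroplast ATP synthase and was the dim end of this group, at 0.909 ± 0.104 and 0.411 ± 0.148 (SD, n = 6 each), a ratio of 2.21. AT4G24930, encoding a protein of the thylakoid lumen, averaged 1.34 ± 0.151 at low and 0.709 ± 0.223 at normal CO2, with normal numbers 3 and 4 at 0.43 and the other normal samples at 0.78 to 0.91. AT1G49380, known as CCS1, which takes part in the assembly of the cytochromes of the plastid, averaged 2.46 ± 0.178 and 1.45 ± 0.629. Its normal CO2 numbers 3 and 4, at 0.63 and 0.70, again lay apart from the others at 1.68 to 2.15, while its low CO2 values kept within 2.35 to 2.81.

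The group of RNA binding, organelle gene expression and translation held 7 genes with ratios of 1.82 to 5.06. AT2G30100, a pentatricopeptide repeat gene of the family that binds organelle transcripts, read 1.34 to 3.18 at low CO2 (median 2.13) and 0.232 to 0.690 at normal CO2 (median 0.447), a ratio of 5.06. AT3G09850, encoding a protein with a G-patch, a motif found in RNA-processing proteins, had the highest signal of the 79 probes at low CO2. It read 127 to 229 at low CO2 (median 198) and 9.80 to 62.7 at normal CO2 (median 56.4), a ratio of 4.27. Numbers 3 and 4 were low in both groups, at 127 and 138 against 9.80 and 12.8, and the other samples stood at 188 to 229 against 53.6 to 62.7. AT5G04600, an RNA recognition motif gene, was dim and read 0.839 to 1.54 at low CO2 (median 1.03) and 0.101 to 0.424 at normal CO2 (median 0.251). The remaining members of the group were AT2G28540 and AT3G32940, which encode proteins with RNA-binding domains, at ratios of 2.65 and 2.44, AT3G18870, an mTERF gene of the family acting on organelle transcripts, at 2.18, and AT4G33760, encoding an aminoacyl-tRNA synthetase for aspartate, at 1.82. AT3G32940 varied least of all members at normal CO2, between 0.973 and 1.10, with low CO2 values of 2.25 to 2.76.

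The group of the ubiquitin system and protein folding, which marks proteins for breakdown or helps them fold, held 5 genes with ratios of 2.49 to 11.6 and a median of 4.01, the highest median of the groups. Beside AT4G39760 it held AT1G49850, encoding a RING finger protein of the type found in ubiquitin ligases, which read 12.05 to 26.6 at low CO2 (median 20.8) and 1.13 to 6.54 at normal CO2 (median 3.63), a ratio of 5.54. Low CO2 number 4 was its lowest low CO2 sample and normal CO2 number 4 its lowest normal one. FBL17 encodes an F-box protein that targets inhibitors of cyclin-dependent kinases and so acts in the cell cycle. Its probe read 1.49 to 2.09 at low CO2 (median 1.68) and 0.256 to 0.556 at normal CO2 (median 0.455), a ratio of 4.01. XERICO, a RING-H2 gene known to raise abscisic acid levels, averaged 12.3 ± 2.05 and 4.93 ± 1.65, a ratio of 2.49, with numbers 3 and 4 highest in both groups. AT4G17070, annotated as a peptidyl-prolyl isomerase, was bright, at 56.2 ± 18.7 and 16.6 ± 8.55 (SD, n = 6 each), with numbers 3 and 4 lowest in both groups.

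Enzymes of metabolism formed the largest group with a stated role, 20 genes at ratios of 1.71 to 7.23 and a median of 2.28. CYN encodes cyanase, which breaks down cyanate with bicarbonate and releases CO2 and ammonia. It read 2.18 to 3.61 at low CO2 (median 2.56) and 0.624 to 1.61 at normal CO2 (median 1.02), a ratio of 2.66 (log2 difference 1.44 ± 0.22, SE), and low CO2 numbers 3 and 4 were its highest pair. AT2G35390, encoding a synthase of phosphoribosyl pyrophosphate, the precursor of nucleotides, read 1.56 to 2.28 at low CO2 (median 1.87) and 0.261 to 0.646 at normal CO2 (median 0.403), a ratio of 4.69. AT5G52810, known as SARD4 and a gene of pipecolic acid synthesis in plant immunity, had a ratio of 4.85 but scattered widely, with 1.23 to 3.55 at low CO2 (median 2.84) and 0.201 to 1.19 at normal CO2 (median 0.463). Its lowest low CO2 sample, number 4, and its highest normal CO2 sample, number 6, were nearly level.

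Of the sugar-transferring and cell wall enzymes, AT4G19900, encoding a glycosyltransferase, read 14.3 to 22.9 at low CO2 (median 15.7) and 2.38 to 5.40 at normal CO2 (median 3.77), a ratio of 4.54, with numbers 3 and 4 highest in both groups. AT5G63390, like AT1G35510 of the O-fucosyltransferase family, stood at a ratio of 2.62, while a probe that lists it with other genes averaged 1.07 at low and 1.47 at normal CO2. AT4G18180, encoding a protein of the pectin lyase type, and AT5G66530, encoding an aldose epimerase-like protein, had ratios of 1.86 and 2.14. AT5G11650, an alpha/beta-hydrolase gene of the monoacylglycerol lipase type, read 2.13 to 2.86 at low CO2 (median 2.40) and 0.248 to 0.881 at normal CO2 (median 0.478), a ratio of 5.01. Another alpha/beta-hydrolase gene, AT3G61540, was at 1.92, and its low CO2 values kept within 5.95 to 6.70 while the normal ones spread over 1.30 to 5.34.

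Oxidoreductases were represented by AT3G04650, encoding a protein that binds FAD or NAD(P), at a ratio of 3.51, and by AT4G31530, AT1G32220, AT1G72640 and AT4G27250, which encode proteins with the NAD(P)-binding Rossmann fold, at 2.29, 2.26, 1.73 and 1.71. AT4G31530 also had a signal far above the array median, with 98.7 to 128 at low CO2 (median 119) and 40.5 to 63.2 at normal CO2 (median 48.97). A probe that lists AT4G31530 with other genes averaged 1.78 at low and 2.80 at normal CO2, and whether it measures the same transcript is unknown. The rest of the enzyme group ran from AT1G24040, encoding an acetyltransferase of the GNAT family, at 3.88, over AT3G50270, an acyltransferase gene, at 2.08, AT3G29410, a terpene synthase gene, at 1.91 and AT4G33540, of the metallo-beta-lactamase fold, at 1.82, to AT4G24750, encoding a rhodanese-like protein, at 1.80.

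Signalling and defence genes numbered 5, with ratios of 2.21 to 4.71. AT2G31800, encoding a protein kinase of the integrin-linked kinase type, was dim and read 0.749 to 1.38 at low CO2 (median 1.04) and 0 to 0.472 at normal CO2 (median 0.260). Normal CO2 number 1 was at 0, the only value of 0 among the 948 values of the 79 probes, so its log2 difference rests in part on a replaced value and only the ratio of means, 4.71, is given. The kinase genes AT3G57120 and ATSIK had ratios of 3.59 and 2.80. For AT3G57120 the groups were tight, at 3.34 ± 0.389 and 0.930 ± 0.106 (SD, n = 6 each). AT3G04210 and AT5G05400, which encode intracellular immune receptors of the nucleotide-binding type, had ratios of 3.200 and 2.21.

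Genes of mitochondria, membranes and the cytoskeleton numbered 5. AT4G32060, known as MICU, encodes a calcium-binding regulator of calcium uptake by mitochondria, and read 11.6 to 17.9 at low CO2 (median 14.3) and 2.65 to 5.71 at normal CO2 (median 2.95), a ratio of 4.03. AT4G39690, known as MIC60, encodes an organizer of the inner mitochondrial membrane and had the smallest ratio of all members, 1.56, at 8.94 ± 0.789 and 5.72 ± 0.859. AT4G00170 and MAMI encode proteins related to VAP, a family anchored in the endoplasmic reticulum at membrane contacts. AT4G00170 read 1.71 to 2.21 at low CO2 (median 2.03) and 0.241 to 0.843 at normal CO2 (median 0.475), a ratio of 3.87, and MAMI, named for its induction by mannitol, stood at 2.52. AT3G44050, a kinesin gene, was at 1.89. A last pair of genes had roles in transcription or the clock. CCL has an unstable transcript under circadian control and averaged 10.04 ± 1.82 and 3.60 ± 0.982, a ratio of 2.79, and AGL103, a MADS-box gene, had a ratio of 1.69. The labels do not give the time of day of the sampling.

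For 29 members no role is stated here, AT4G35660 among them. Those of the 25 highest ratios were AT3G44570 at 4.62, AT1G50880 at 4.54, AT4G09620 at 4.38, AT5G46560 at 3.81, AT5G52530 at 3.80 and AT2G27290 at 3.78. AT1G50880 read 13.1 to 16.4 at low CO2 (median 14.5) and 2.72 to 4.17 at normal CO2 (median 3.09), and AT5G46560 read 7.25 to 9.65 at low CO2 (median 8.56) and 1.96 to 2.49 at normal CO2 (median 2.22), so both had groups that were narrow beside the distance between them. AT2G27290 was bright and scattered, with 56.2 to 118 at low CO2 (median 76.4) and 13.6 to 36.9 at normal CO2 (median 17.5), and numbers 3 and 4 were highest in both groups. AT5G56070, at 2.54, was the one member for which a probe shared with other genes was also higher in every low CO2 sample, at 1.55 to 2.79 against 0.165 to 0.430. In all, 7 members had such a further probe. Those of AT5G46390, AT4G31530, AT1G35510 and AT5G63390 averaged lower at low CO2, as given above, that of AT5G42680 averaged 1.31 and 1.16 with overlapping groups, and that of AT3G60590 was near 0 in both.

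The remaining members without a stated role had the following ratios. AT3G57440, AT3G61870, AT2G01400, AT3G60590, AT3G06870, AT5G33390, AT1G01730, AT1G64430, AT4G08940, AT5G17280, AT5G27560, AT5G66090 and AT5G48830 stood at ratios of 3.51 to 2.03. AT1G51350, AT1G50020, AT4G19160, AT3G52070, AT5G42680, AT3G56290, AT1G11470 and AT2G32470 stood below 2, from 1.96 to 1.59. AT3G56290 had the narrowest low CO2 group of all members, 2.16 to 2.30, above 0.982 to 1.45 at normal CO2. In AT3G52070, as in AT4G24750 and AT4G33760, numbers 1 and 2 were highest in both groups.

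**Figure D3:**
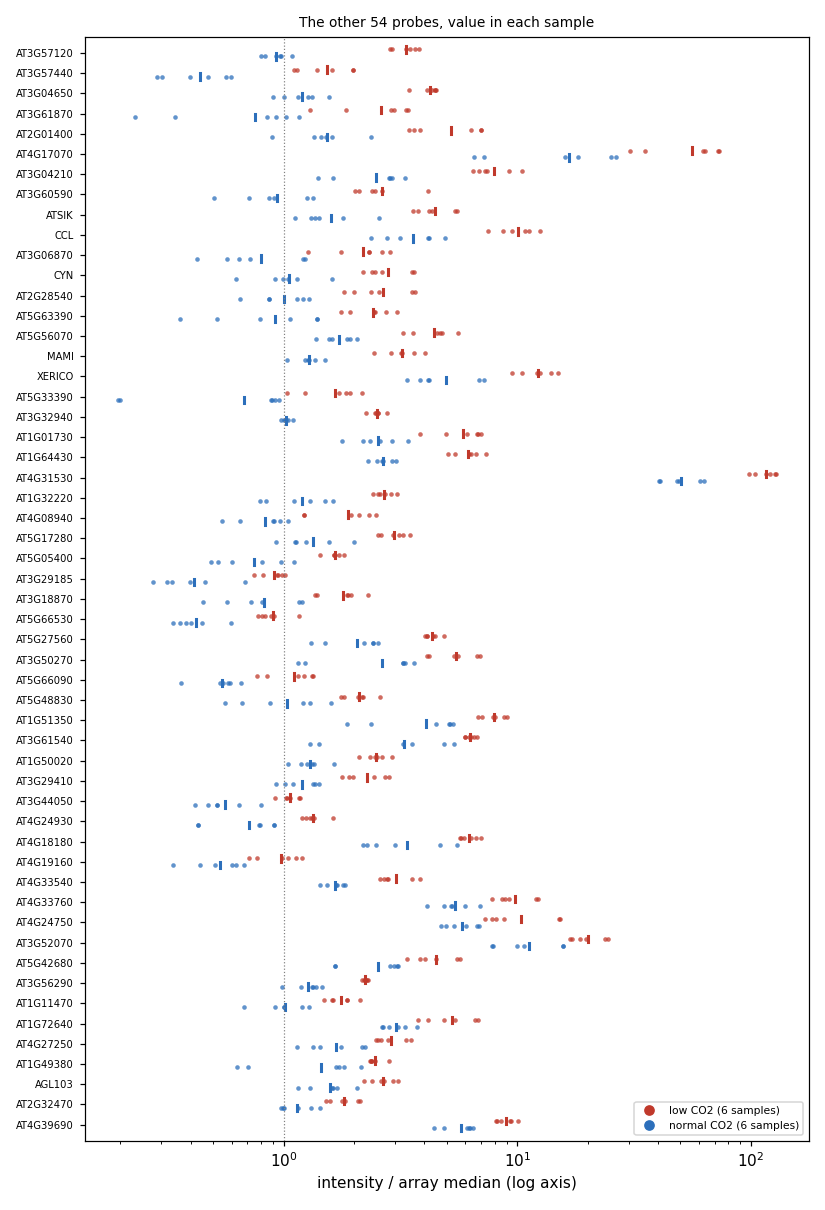
The same plot for the other 54 probes, ordered from a ratio of 3.59 at the top to 1.56 at the bottom. The groups are separated in every row by the choice of probes, and the width of the gap does not follow the order of the rows. The bright probes on the right are AT4G31530 and AT4G17070.

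The members sat at varying distances from the limits of the selection. The smallest gap between the groups belonged to AT1G72640, whose lowest low CO2 value of 3.74 exceeded its highest normal CO2 value of 3.71 by 0.977% of that normal value, followed by AT3G06870 and AT5G52810 at 2.40% and 2.93%. Just outside were AT3G47650, with 3.53 at its lowest low CO2 and 3.54 at its highest normal CO2 sample, AT5G23540 and AT2G37750, which overlapped by under 1% of the highest normal value. By level, AT5G66530, AT3G29185 and AT4G19160 were just inside with deposited low CO2 means of 0.321, 0.326 and 0.350, and AT5G09820, APTX and AT3G25680 just outside with 0.287, 0.239 and 0.191.

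On other scales, all 79 log2 differences stayed above 0, and separation of the groups was kept by some. On the deposited values, where no scaling was applied, 41 of the 79 had no overlap (7.24% of all probes did in this direction) and the median log2 difference was 0.86, with the median of all probes at -0.60. After quantile normalization, which gives all arrays the same distribution, 60 had no overlap (12.3% of all probes) and the median was 1.20. Scaling to the 75th percentile gave 63 (12.2%) and cyclic loess 61 (13.6%). Among the 25 with the highest ratios, 24 had no overlap on the deposited values, AT5G52810 being the exception, and 22 after quantile normalization, where AT5G52810, AT3G09850 and AT2G27290 overlapped. Among the other 54, 17 and 38 had no overlap on these scales.

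The bright members had smaller differences after quantile normalization. AT4G31530 was at 1.21 on the median scale and 0.21 after quantile normalization, AT2G27290 at 1.96 and 0.96, AT3G09850 at 2.41 and 1.44 and AT4G17070 at 1.88 and 0.89. The smallest member, AT4G39690, was at 0.65 and 0.09. Quantile normalization lowered the difference of 65 of the 79 and raised that of 14, and each of the raised ones had a normal CO2 mean under the array median. Those raised most were AT5G04600, at 2.14 and 2.70, and AT2G31800, whose normal CO2 values include the 0. Values that moved little included those of AT2G30100 at 2.37 and 2.36, AT2G35390 at 2.29 and 2.38, FBL17 at 2.04 and 2.08 and CYN at 1.44 and 1.37. NdhS was at 2.18 and 1.69, FZL at 2.26 and 1.97, and neither overlapped on either scale.

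**Figure D4:**
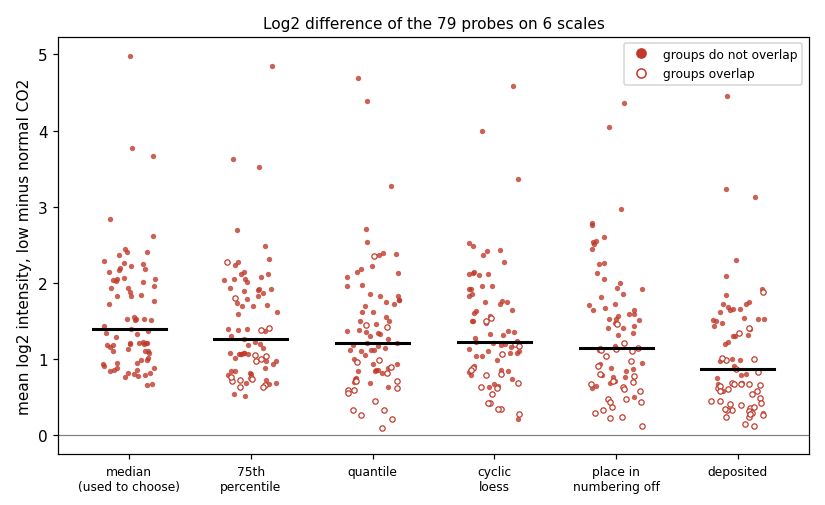
Difference of mean log2 intensity, low minus normal CO2, of the 79 probes on 6 scales; filled points have groups that do not overlap, open points have groups that overlap, and black bars are medians. The medians are 1.39 on the median scale that chose the probes, 1.26, 1.20, 1.22 and 1.14 on the next 4 scales and 0.86 on the deposited values, and no point lies below 0.

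Members were also unevenly placed along the probe numbers, which run to 4607. The numbering was folded at a set length of 288 numbers, a 16th of it, called the repeat here. How well other lengths describe the differences between the groups is not given here. The repeat was divided into 48 bins of 6 numbers. With the 79 probes left out, the median log2 difference of a bin was above 0 in 23 bins, and 55 members (69.6%) lay in these, as did 55.3% of all single-gene probes. Of the 25 with the highest ratios 16 did. When the median deviation of each bin was subtracted sample by sample, 52 members had no overlap (15.0% of all probes), and the median difference was 1.14.

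All 55 members in bins above 0 stood lower than on the median scale, and 22 of the 24 in bins below 0 stood higher. These directions follow largely from the subtraction itself. The other 2 of the 24 were AT3G57120, at 1.41 with the place taken off and 1.84 without, and AT3G18870, at 0.76 and 1.19, both in a bin close to 0. NdhS was at 2.51, AT4G32060 at 2.60, CCL at 2.04 and CYN at 1.94 with the place taken off, each above its value on the median scale. AT5G04600 was at 1.10, AT3G44570 at 1.21 and AT3G04650 at 0.78, each below it, and the groups of the first 2 overlapped. AT4G35660 was at 4.37, AT4G39760 at 2.97 and FZL at 1.70, with no overlap. On the deposited values, after quantile normalization and with the place taken off, 31 members had no overlap on all 3, as did 6.31% of all probes in this direction. Neighbouring numbers held AT3G57120 and AT3G18870 as well as AT3G61540 and AT1G11470, each 1 number apart. The sources used here do not give what a probe number stands for on the array.

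**Figure D5:**
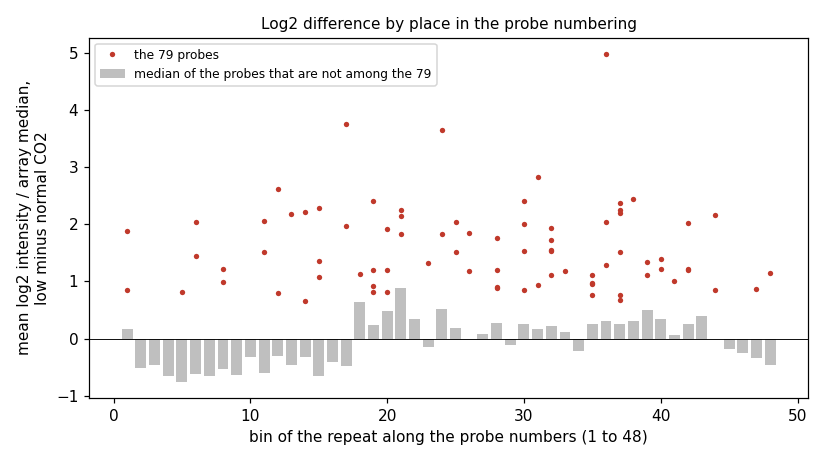
Difference of mean log2 intensity divided by the array median, low minus normal CO2, against the bin of the repeat along the probe numbers; grey bars are medians of the probes that are not among the 79 and red points are the 79. Red points occur over bins above and below 0, with 55 of the 79 over bins above 0.

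In the genome, the members were spread over all 5 nuclear chromosomes, with 13, 8, 23, 18 and 17 on chromosomes 1 to 5 in the reference TAIR10.1. Counts for the other single-gene probes are not given, so these do not show whether the members are placed differently. No 2 members were neighbours. The closest in gene order were AT4G39690 and AT4G39760, 10 protein-coding genes apart, followed by AT4G24750 and AT4G24930 and by AT5G46390 and AT5G46560, each 17 apart. Of 17 markers of seed, root, leaf mesophyll, guard cell and phloem companion cell drawn up for the array, 1, a leaf mesophyll marker, had a single-gene probe, so the cell types in the samples were not checked.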

How the data were processed

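The deposited table held intensity values on a linear scale for 3439 probes in 12 samples, with values of 0 and an upper bound of 100. How the authors scanned, corrected and scaled the arrays is unstated in the sources used here. Genes were named from the platform's annotation, which lists 692 probes with 1 gene, 870 with several and leaves 1877 unnamed here. Symbols came from RefSeq TAIR10.1, in which all 79 members were matched. Product names are not part of that table, so the planned keyword classes could not be applied, and roles are background knowledge assigned by hand to 50 members after the members were known. No sequences were printed, as none were given. Before log2, a value of 0 was replaced by the lowest positive one on its array.

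The groups were compared over all probes with limma 3.58.1 in R 4.3.3 (lmFit, eBayes, two-sided, 6 against 6, no block, Benjamini-Hochberg, threshold 0.05), after a check on simulated data. The simulated samples were independent, so the check does not cover the likeness of adjacent samples. The fit gives the background only. Its p-values rest on the spread between the samples given, possibly technical. Other steps used Python 3.11.15. The members and lists were chosen with earlier results of these data known. Named with full values were the 25 members with the highest ratio of group means, the 3 probes nearest each limit of the selection on either side and probes that share a member gene; other members were described after their values were seen. The number of arrays limits the precision.

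Same-numbered samples of the groups deviated together at 0.137 to 0.206 over all probes for numbers 1 to 5 and at -0.107 for number 6. Over the members, the same pair of adjacent numbers also deviated alike in both groups, at 0.418 to 0.675. The main fit assumed no pairing by number, a choice that these values do not justify. Whether the pairs are blocks common to both groups was not tested. The fit with each number as a replicate block is given below. Alternatives were other scalings, level limits, a pseudocount, filters, blocks, averaged adjacent samples, the place in the numbering and each sample left out.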

Additional observations from a re-analysis of the deposited data

Results flagged for a closer look

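In 2 of the 50 sets of 6 values of the 25 probes with the highest ratios, 1 sample lay apart from the other 5. Chance gives about 5% among sets of independent samples, but adjacent samples here resemble each other and the probes were chosen by these values, so no expected number is given. For AT1G49850, low CO2 number 4 was at 12.05 against 20.4 to 26.6 in the other low CO2 samples, a gap of 0.665 of the range on the log2 scale. For AT3G44570, low CO2 number 3 was at 5.596 against 3.76 to 4.13, a gap of 0.768 of the range. In either case the groups did not overlap with or without that sample, an outcome that the selection fixed in advance.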

How the results depend on the processing

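The number of single-gene probes that the selection keeps was 79 on the median scale, 41 on the deposited values, and 64 to 77 with quantile normalization, the 75th percentile, the median of probes with no 0 or the place in the numbering taken off. It was 83 without the level limit, 71 with a limit of 0.5, 116 with adjacent samples averaged and 79 to 88 with 1 sample left out. Read as a replicate block, with low above normal CO2 within each number, it kept 140. The median log2 difference of the 79 was 1.39, 0.86 on the deposited values, where the median of all probes was -0.60 (-0.20 at the 75th percentile), 1.14 to 1.38 under the other scalings, the pseudocount and the ratio of medians, and 1.32 to 1.45 with 1 sample left out. Over all probes 1427 changed by limma, 1605 with a replicate block, 488 with adjacent samples averaged, 900 with adjacent pairs as a random block and 1294 to 1376 with 1 sample left out; averaging leaves 3 samples a group. On the deposited values 373 were higher and 1302 lower, against 724 and 703 on the median scale. Of 500 alternative values of the 25 named log2 differences none changed sign, and 46 moved by more than the spread between replicates, all under the deposited scale, quantile normalization, cyclic loess or the place taken off. Where a sample is left out or adjacent samples are averaged on the median scale, the selection fixes the sign in advance.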
